A study of Mus musculus with 8 samples.

Results

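The genes described here are 9 early neuroectoderm genes, Sox1, Sox3, Pax6, Hes5, Nes, Zic1, Zic2, Six3 and Pax3, measured in embryoid bodies of mouse embryonic stem cells after knockdown of CnAβ1. They were chosen by name, as genes that mark cells turning to a neural fate, and every probe of the array assigned to 1 of the 9 symbols was taken. This gave 13 probes and 22 spots per array, among 39429 probes for 32530 genes. All 9 genes passed the filter on dim signal by their brightest probe, which was well above background on all 8 arrays, and 22413 genes passed in all.

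CnAβ1 is an alternatively spliced form of calcineurin's Aβ catalytic chain (gene Ppp3cb), and calcineurin is a phosphatase switched on by calcium and calmodulin. All samples came from the pluripotent mouse embryonic stem cell line R1, differentiated for 48 h as embryoid bodies and collected 48 h after siRNA transfection. CnAβ1 was targeted by siRNA 1 on 3 arrays and siRNA 2 on 2 arrays, and a control siRNA (Control) was used on 3 arrays. The labels name 1 cell line and give no origin for the replicates, so the p-values refer to the spread among these arrays, which may be technical.

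Neuroectoderm is the part of the ectoderm that becomes brain, spinal cord and neural crest, and it forms where BMP and Nodal signals are held down. SoxB1 transcription factors such as Sox1 and Sox3 hold cells in a neural progenitor state, Zic, Pax and homeodomain factors divide the neural plate into regions, Notch signalling keeps progenitors from becoming neurons through Hes5, and nestin is an intermediate filament of those progenitors. Sox3 and Zic2 are not restricted to neural cells at this stage and are also active in pluripotent and epiblast cells.

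The promoters of Hes5, Zic1 and Nes are shown because the 3 genes differ in spread across the arrays. Hes5 spanned 0.49 log2 units, near the 0.498 median of all tested genes, whereas Zic1 spanned 1.28 and Nes 1.13. The wide spread of Zic1 and its correlation with Nes rest on 1 of its 2 probes, and the other spanned 0.363. The part of the promoter sequences in the spread was not tested. RefSeq promoter windows on build GRCm38.p6, from 250 bases before to 50 bases after an annotated start, were found for 6 of the 9 genes, and Sox3, Zic2 and Pax3 are named only. Each window is printed 5′ to 3′ on the strand of the gene, and capitals mark matches on either strand to 4 short motifs. These were GGGCGG, known as the GC box, the promoter motif CCAAT, the TATA box motif TATAAA, and the core motif TGGGAA of RBPJ, which is the transcription factor of Notch signalling. Among the members' windows 0 matches overlapped another match. The windows were chr4:154960673-154960972 on the plus strand for Hes5, chr9:91365719-91366018 on the minus strand for Zic1 and chr3:87970843-87971142 on the plus strand for Nes.
Hes5: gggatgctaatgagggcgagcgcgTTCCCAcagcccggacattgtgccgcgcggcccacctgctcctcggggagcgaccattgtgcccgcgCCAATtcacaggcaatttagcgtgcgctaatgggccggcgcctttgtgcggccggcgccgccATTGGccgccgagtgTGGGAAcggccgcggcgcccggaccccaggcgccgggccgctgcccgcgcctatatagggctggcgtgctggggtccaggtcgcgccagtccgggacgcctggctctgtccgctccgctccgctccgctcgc
Zic1: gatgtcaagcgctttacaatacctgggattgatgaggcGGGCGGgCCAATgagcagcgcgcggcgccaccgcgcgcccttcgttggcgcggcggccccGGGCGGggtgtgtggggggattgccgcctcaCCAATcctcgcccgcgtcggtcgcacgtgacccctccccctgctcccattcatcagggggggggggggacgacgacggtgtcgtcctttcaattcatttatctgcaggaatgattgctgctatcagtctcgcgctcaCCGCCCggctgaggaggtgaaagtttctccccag
Nes: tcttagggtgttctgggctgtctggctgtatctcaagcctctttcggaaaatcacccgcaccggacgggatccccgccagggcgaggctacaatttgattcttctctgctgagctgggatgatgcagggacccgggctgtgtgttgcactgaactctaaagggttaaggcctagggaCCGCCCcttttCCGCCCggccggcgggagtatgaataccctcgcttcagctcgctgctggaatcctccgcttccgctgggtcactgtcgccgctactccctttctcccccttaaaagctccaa
The Hes5 window held 2 matches to TGGGAA, beginning 226 and 82 bases before the start, and 2 to CCAAT. It also held 41 CG pairs, more than 96.5% of 32851 RefSeq windows of the same length, whose median was 7. The Zic1 window held 3 GC boxes and 2 CCAAT matches, and the Nes window 2 GC boxes, beginning 73 and 62 bases before the start. Sox1 spanned 1.55 log2 units, more than Zic1, and its window is not printed. That window held 3 GC boxes, 1 CCAAT and 1 TGGGAA match, and 37 CG pairs, so motifs of the printed windows do not sort the members by spread. Across all windows, 35.66% held a GC box, 37.41% CCAAT, 13.62% TATAAA and 25.56% TGGGAA.

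Signal exceeded background clearly at 68.0% to 75.1% of non-control spots per array, and precision is limited by how few arrays there are. Signals are given on the log2 scale as processed signal over the 75th percentile of the array, so 0 is that percentile and 1 unit is a doubling of signal. Levels are compared between arrays for 1 probe and not between probes. The arrays lay on 3 slides, with replicate 1 of every group on slide 1, siRNA 1 replicate 3 and Control 2 on slide 2, and replicate 2 of both siRNAs and Control 3 on slide 3. On the first principal component of all tested genes, slide 1 gave scores of 32.1 to 34.6 and the other 5 arrays -26.2 to -13.3, and this component held 42.3% of the variance. The Ppp3cb probe, which is assigned to the gene and is not known to read the CnAβ1 variant, stood at 0.18, 0.39 and 0.61 on siRNA 1 arrays 1, 2 and 3, at 0.42 and 0.62 on siRNA 2 arrays 1 and 2, and at 0.75, 0.52 and 0.62 on Control arrays 1, 2 and 3. These groups overlapped, with a log2 difference of -0.17 (SE 0.12, limma's unadjusted p = 0.183) for both siRNAs against Control. The probe therefore did not tell the siRNA groups from Control, and the knockdown of the variant could not be checked on these arrays.

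The first question was whether the neuroectoderm genes differed between the knockdown and Control embryoid bodies. None of the 9 passed limma's adjusted p of 0.05 in any comparison, and 0 of 22413 genes (0%) passed for both siRNAs against Control, for either siRNA against Control or for siRNA 2 against siRNA 1. At an unadjusted p of 0.05, limma's test took 3.58% of all genes with both siRNAs against Control, 3.5% with siRNA 1, 3.34% with siRNA 2, 3.36% between the siRNAs, and 0 of the 9 in each. The mean of both siRNAs was above Control in 2 of the 9, Sox3 and Pax3, and below it in 7, with a median log2 difference of -0.07, against 0.01 over all genes, of which 52.9% were above 0. For siRNA 1, 4 of 9 were above Control, against 58.2% of all genes, and for siRNA 2, 2 of 9, against 49.8%. The siRNA and Control values of every member overlapped both for the 5 siRNA arrays together, where 3.44% of all genes did not, and for siRNA 1, where 7.9% did not. In bulk RNA, a difference of this kind could come from fewer cells of a type or from less RNA per cell, and these cannot be told apart. The comparisons of each siRNA share the Control arrays and are not independent of each other.

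**Figure D1:**
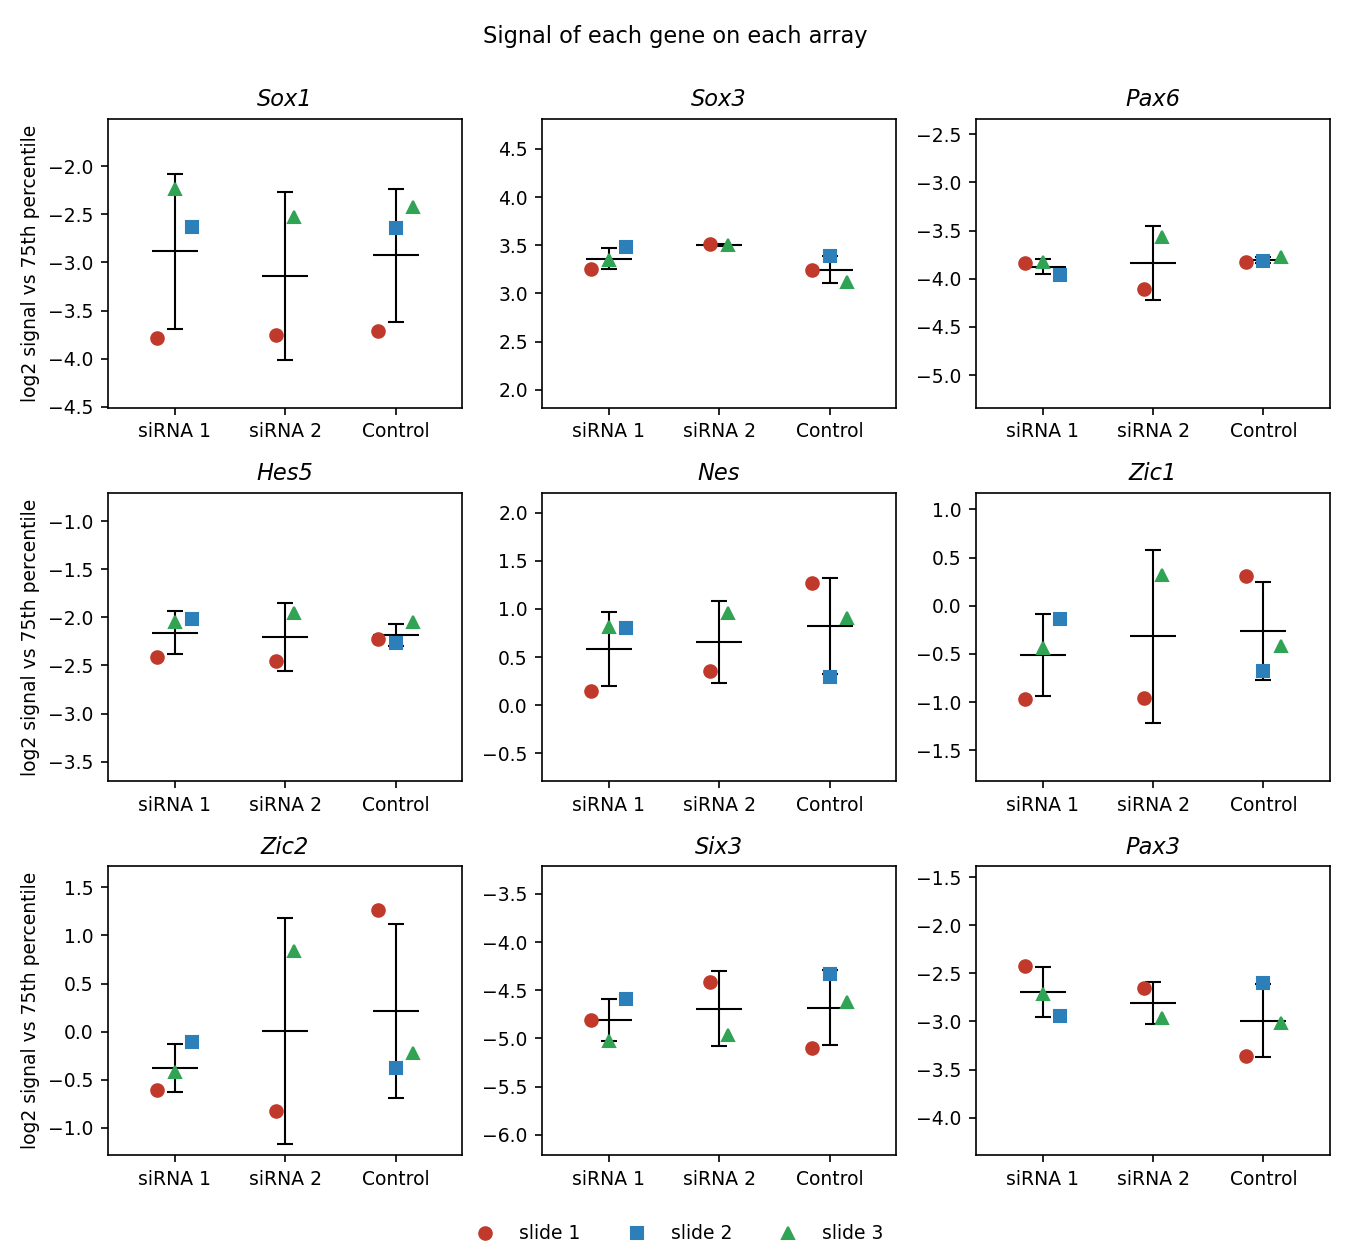
Log2 signal of each gene over the 75th percentile of the array (y axis, spanning the same number of log2 units in each panel) for siRNA 1 (3 arrays), siRNA 2 (2 arrays) and Control (3 arrays), with points coloured by slide and bars for the mean and SD. Sox3 is the gene whose siRNA 2 arrays, at 3.50 and 3.51, both lie above the highest Control array at 3.39, and the Sox1 points of slide 1 lie below the others in every group.

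The SoxB1 factors came out differently from each other. Sox3, a SoxB1 factor of neural progenitors that is also present in epiblast, stood at 3.26, 3.35 and 3.48 on siRNA 1 arrays 1, 2 and 3, at 3.51 and 3.50 on siRNA 2 arrays 1 and 2, and at 3.24, 3.39 and 3.11 on Control arrays 1, 2 and 3. Both siRNA 2 arrays lay above all siRNA 1 and all Control arrays, whereas siRNA 1 overlapped Control. Sox3 was the 1 member whose siRNA 2 and Control values did not overlap, as occurred in 16.9% of all genes, upward in 8.75%. It also stood apart from siRNA 1, as occurred in 19.1% of genes, upward in 7.26%. It averaged 3.36 ± 0.11 (SD, n = 3) in siRNA 1, 3.51 ± 0.0096 (SD, n = 2) in siRNA 2 and 3.25 ± 0.14 (SD, n = 3) in Control. The log2 difference of siRNA 2 from Control was 0.26 (95% interval -0.0082 to 0.53, limma's unadjusted p = 0.0557), that of siRNA 1 was 0.11 (SE 0.10), and that of both was 0.19 (SE 0.091, limma's unadjusted p = 0.0802). On slide 1, Sox3 differed from Control by 0.02 in siRNA 1 and 0.27 in siRNA 2, and on slide 2 by 0.09 in siRNA 1. On slide 3 it differed by 0.23 in siRNA 1 and 0.38 in siRNA 2. These pairs share 3 Control arrays, and the share of all genes that lie on 1 side in every pair was not computed. The fitted differences of Sox3 did not pass over all genes.

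Sox1, the SoxB1 factor most closely tied to commitment to neural fate, read lower on slide 1 than on the other slides in every group. Its brighter probe (A_55_P2012056) stood at -3.78, -2.23 and -2.63 on siRNA 1 arrays 1, 2 and 3, at -3.75 and -2.52 on siRNA 2 arrays 1 and 2, and at -3.71, -2.64 and -2.43 on Control arrays 1, 2 and 3. The lowest value of every group was its array on slide 1, and the groups overlapped throughout. Slide 1 holds replicate 1 of every group, so slide and replicate number cannot be told apart here. The log2 difference from Control was -0.08 for both siRNAs (95% interval -1.22 to 1.05), 0.05 for siRNA 1 and -0.21 for siRNA 2, in a fit that ignores the slides. With the slide as a block the difference for both siRNAs was -0.02, and within slides the 5 differences from Control lay between -0.10 and 0.20, far narrower than that interval.

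With slide 1 as a term beside the groups, a comparison chosen after the values were seen, Sox1 on slide 1 differed from slides 2 and 3 by -1.25 log2 units (SE 0.12), with means of -3.75 and -2.49 and an adjusted p of 0.00159 by limma across all genes. The same fit took 1177 genes (5.25%) as lower on slide 1 and 152 (0.678%) as higher, 5.93% in all. Sox1 was the 1 of 9 members taken, and Hes5 came next at -0.30 with limma's adjusted p of 0.232. The second Sox1 probe (A_55_P2012051) read -4.15, -3.61 and -3.49 on siRNA 1 arrays, -4.26 and -3.82 on siRNA 2 arrays and -4.12, -3.73 and -3.86 on Control arrays. It was lower on slide 1 as well, with a log2 difference of -0.46 (SE 0.089, limma's adjusted p = 0.0341 over 27372 probes), against -1.25 for the brighter probe in that fit. The 2 Sox1 probes correlated at r = 0.875 over 8 arrays, but their ranges were 0.773 and 1.55 log2 units, so the size of the slide difference depends on the probe. Over the 13 other settings tried the difference kept its sign and passed, from -1.30 to -0.63 (the smallest with normexp), with limma's adjusted p between 0.00116 and 0.0159.

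Other genes also differed on slide 1. Of 268 tested olfactory receptor genes (Olfr symbols), a family best known from the olfactory epithelium, 55 (20.5%) were lower and 3 higher on slide 1, with a median log2 difference of -0.28, against -0.02 over all genes. In the neural lists, 2 of 13 crest genes, Pax7 and Sox10, and 2 of 13 genes of early neurons, Neurog2 and Elavl4, were lower, the BMP antagonist Nog was higher, and 0 of 28 wider neural plate and 0 of 17 Notch pathway genes passed in either direction. In the other lists Lhx1 and Krt5 were lower and Dcn was higher. Of 15 endoderm genes 0 passed, with 14 below 0 and a median log2 difference of -0.40. What slide 1 shares beyond its replicate number was not tested, and its part in the Sox1 values was not tested either. The genes closest to Sox1 in pattern over the 8 arrays were Htra3 and Olfr1280, both at r = 0.996.

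**Figure D2:**
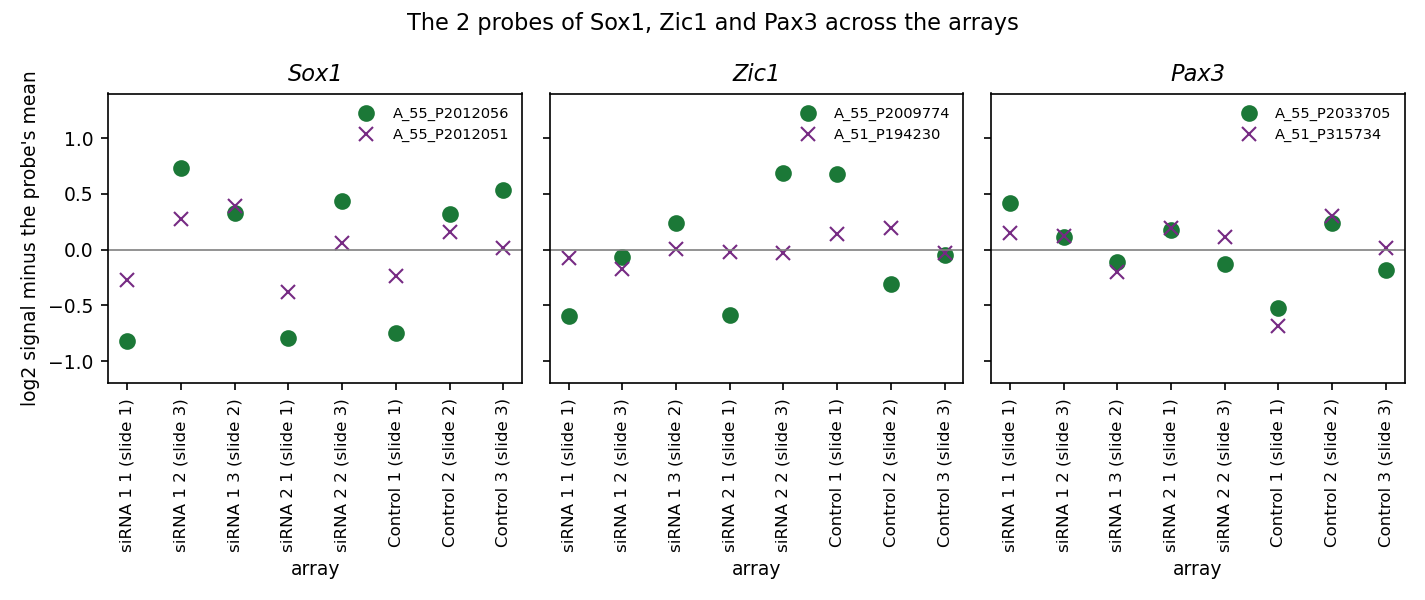
Log2 signal, scaled to each array's 75th percentile, of the 2 probes of Sox1, Zic1 and Pax3 over the 8 arrays (siRNA 1, siRNA 2, then Control), each shown as the difference from its own mean. The Sox1 probes move together with unequal range, whereas 1 Zic1 probe spans 1.28 log2 units and the other 0.363.

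Zic1 and Zic2, zinc finger factors of the early neural plate and its dorsal part, varied widely between arrays of 1 group. Zic2 stood at -0.60, -0.42 and -0.11 on siRNA 1 arrays 1, 2 and 3, at -0.83 and 0.84 on siRNA 2 arrays 1 and 2, and at 1.26, -0.37 and -0.23 on Control arrays 1, 2 and 3. The highest was Control 1 and the next siRNA 2 array 2, while the lowest was siRNA 2 array 1, so the groups overlapped. The span of 2.08 log2 units, 4.24-fold, was larger than that of 98.2% of tested genes. Zic2 averaged -0.38 ± 0.25 (SD, n = 3) in siRNA 1, 0.0073 ± 1.18 (SD, n = 2) in siRNA 2 and 0.22 ± 0.90 (SD, n = 3) in Control, and the log2 difference of both siRNAs from Control was -0.40 (95% interval -1.57 to 0.76).

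Single arrays turned the sign of that difference, which was 0.12 without Control replicate 1 and 0.01 without siRNA 2 replicate 1. Within slide 1, Zic2 differed from Control by -1.86 in siRNA 1 and -2.08 in siRNA 2, within slide 2 by 0.27 in siRNA 1, and within slide 3 by -0.19 in siRNA 1 and 1.07 in siRNA 2. Without the slide 1 arrays, the difference of both siRNAs was 0.59, and without siRNA 2 replicate 2 it was -0.82.

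Zic1 stood at -0.97, -0.44 and -0.13 on siRNA 1 arrays 1, 2 and 3, at -0.95 and 0.32 on siRNA 2 arrays 1 and 2, and at 0.31, -0.68 and -0.42 on Control arrays 1, 2 and 3. The same arrays, Control 1 and siRNA 2 array 2, were the highest, and replicate 1 of each siRNA was lowest. The log2 difference from Control was -0.15 for both siRNAs (95% interval -1.01 to 0.71), -0.25 for siRNA 1 and -0.06 for siRNA 2. The second Zic1 probe (A_51_P194230), also well above background, read -2.13, -2.23 and -2.05 on siRNA 1 arrays, -2.07 and -2.09 on siRNA 2 arrays and -1.92, -1.86 and -2.09 on Control arrays. It spanned 0.363 log2 units, correlated with the brighter probe at r = 0.20 and gave a difference of -0.15 (SE 0.083) for both siRNAs, so the wide spread of Zic1 rests on 1 of its 2 probes.

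By the brighter Zic1 probe, Zic1 and Zic2 values rose and fell together from array to array. Of 36 pairs of members compared over 8 arrays, theirs was the highest positive correlation, with Pearson's r = 0.935 (exact permutation p = 0.000322, adjusted over 36 pairs 0.0058) and Spearman's rho = 0.929 (exact permutation p = 0.00223, adjusted 0.0402). Without siRNA 2 array 2 and Control 1, the 2 arrays farthest from the median, r was 0.91, without slide 1 it was 0.934, and with each group centred on its mean it was 0.942. Only 0.0848% of the other 22412 genes, 19 genes, correlated as highly with Zic2, and 0.183%, 41 genes, with Zic1. By the second Zic1 probe the correlation with Zic2 was r = 0.37, so the relation depends on the probe. Zic5, a relative chosen after its values were seen, correlated with Zic2 at r = 0.33 and spanned 0.26 log2 units. Zic4 was too dim to test.

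Nes, which encodes the intermediate filament nestin, and Pax3, a paired-box factor of the dorsal neural tube and neural crest, ran in opposite directions on most arrays. Nes stood at 0.15, 0.81 and 0.81 on siRNA 1 arrays 1, 2 and 3, at 0.35 and 0.96 on siRNA 2 arrays 1 and 2, and at 1.27, 0.29 and 0.90 on Control arrays 1, 2 and 3. Pax3 stood at -2.42, -2.72 and -2.95 on siRNA 1 arrays 1, 2 and 3, at -2.66 and -2.96 on siRNA 2 arrays 1 and 2, and at -3.36, -2.60 and -3.01 on Control arrays 1, 2 and 3. Control 1 held the highest Nes and the lowest Pax3 value, and siRNA 1 array 1 the reverse. The correlation was r = -0.946 (exact permutation p = 0.000149, adjusted over 36 pairs 0.00536) with Spearman's rho = -0.952 (exact permutation p = 0.00114, adjusted 0.0402). It was -0.896 without the 2 arrays farthest from the median and -0.847 without slide 1, and 1.18% of the other genes ran as strongly against Nes and 0.442% against Pax3. The permutation p does not measure how unusual the pair is among all genes. Nes and Zic1 correlated at r = 0.899 (exact permutation p adjusted over 36 pairs 0.0446), but by Spearman's rho of 0.881 the adjusted exact p was 0.0869. Without slide 1 that r was 0.702, and 2.91% of the other genes correlated as highly with Nes and 0.611% with Zic1. Pax3 also ran against Zic1 (r = -0.856) and Zic2 (-0.832), and Nes ran with Zic2 (0.814). Their adjusted exact permutation p was 0.0466, 0.0466 and 0.0470 by Pearson's r but 0.0964, 0.131 and 0.144 by Spearman's rho. The second Zic1 probe correlated with Nes at r = 0.0468.

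Neither gene differed between groups beyond the spread. The log2 difference of both siRNAs from Control was -0.20 (95% interval -0.86 to 0.45) for Nes and 0.24 (95% interval -0.23 to 0.71) for Pax3. Within slide 1, Nes differed from Control by -1.13 in siRNA 1 and -0.92 in siRNA 2 and Pax3 by 0.94 in siRNA 1 and 0.70 in siRNA 2, whereas on slide 2 Nes differed by 0.51 and Pax3 by -0.35 in siRNA 1. On slide 3 Nes differed by -0.10 in siRNA 1 and 0.05 in siRNA 2, and Pax3 by 0.30 in siRNA 1 and 0.05 in siRNA 2, so both genes stood slightly above Control in siRNA 2 there. A second Pax3 probe (A_51_P315734), printed as 10 spots per array, was well above background on 6 of 8 arrays and followed the first at r = 0.84. Its array means were -5.70, -5.73 and -6.05 in siRNA 1, -5.66 and -5.73 in siRNA 2, and -6.53, -5.55 and -5.83 in Control, and its 10 spots had an SD of 0.205 to 0.340 within an array. The 2 arrays on which it was not well above background were siRNA 1 array 3 and Control 1, the array with the lowest Pax3 value by both probes.

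**Figure D3:**
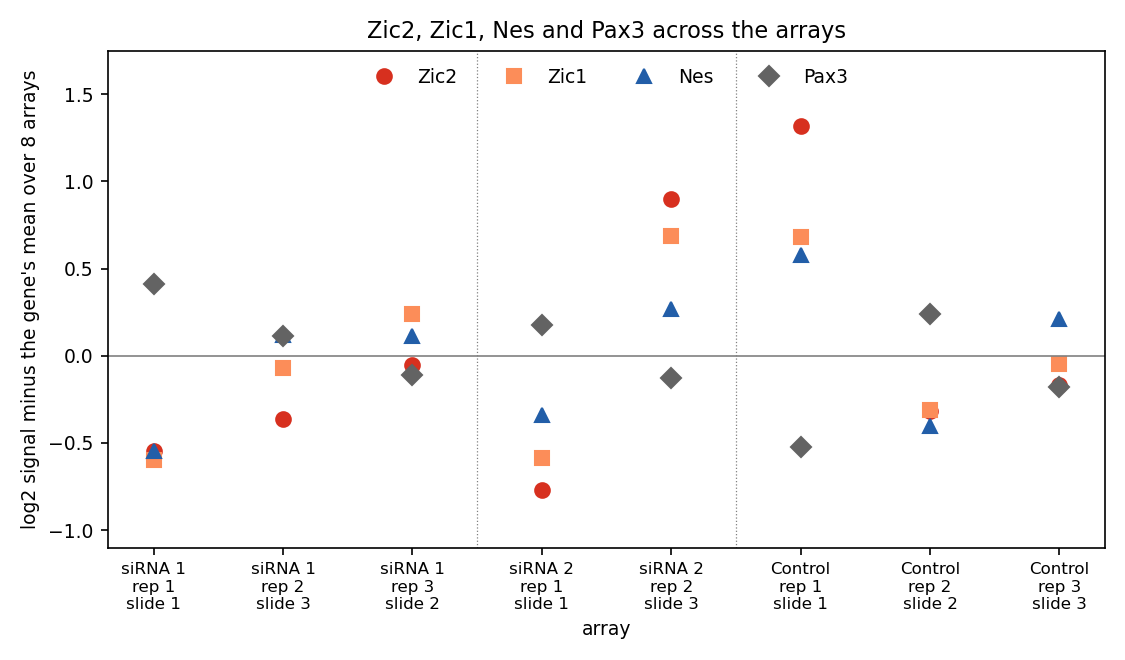
Log2 signal of Zic2, Zic1, Nes and Pax3 as the difference from each gene's own mean (y axis) on the 8 arrays (siRNA 1, siRNA 2, then Control). Zic1 (brighter probe) and Zic2 follow each other at r = 0.935 and Pax3 runs against Nes at r = -0.946, and Control 1 is the extreme array for Zic2, Nes and Pax3.

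These patterns followed the second principal component of all tested genes, which held 22.5% of the variance and on which Control 1 stood highest at 34.1 and Control 2 lowest at -25.9. Over the 8 arrays, Nes correlated with it at r = 0.967, Zic1 at 0.86, Zic2 at 0.837, Pax3 at -0.95 and Six3 at -0.664, as a description, since the members are among the genes that make the component. Sox1 and Hes5 correlated with the first component, the one that set slide 1 apart, at r = -0.992 and -0.797. Sox3 correlated with neither, at r = -0.008 and -0.211. The genes most alike over the 8 arrays were Fzd2 (r = 0.995) and Kif1c (0.993) for Nes, Mis12 (0.986) and Cap2 (0.976) for Zic1, Pms2 and Dlg4 (both 0.968) for Zic2, and Msmp (0.990) and Dubr (0.986) for Pax3.

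Pax6 and Six3 mark the eye field and forebrain, in which both are transcription factors. Pax6 stood at -3.84, -3.82 and -3.96 on siRNA 1 arrays 1, 2 and 3, at -4.11 and -3.57 on siRNA 2 arrays 1 and 2, and at -3.83, -3.82 and -3.77 on Control arrays 1, 2 and 3. The 2 siRNA 2 arrays were the lowest and the highest of all 8, while the Control arrays spread by an SD of only 0.030 (n = 3). Its log2 difference was -0.05 for both siRNAs (95% interval -0.35 to 0.25), and a second Pax6 probe (A_52_P469306) was well above background on 0 of 8 arrays. Six3 stood at -4.80, -5.03 and -4.59 on siRNA 1 arrays 1, 2 and 3, at -4.42 and -4.97 on siRNA 2 arrays 1 and 2, and at -5.10, -4.33 and -4.62 on Control arrays 1, 2 and 3. Control held both the lowest and the highest Six3 array, and the log2 difference of both siRNAs was -0.07 (95% interval -0.57 to 0.43). Likeness over the arrays was highest with Sesn2 (r = 0.912) and Ddx54 (0.873) for Pax6 and with Snw1 (0.987) and Zbtb8b (0.964) for Six3.

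Hes5, a transcriptional repressor that Notch signalling switches on in neural progenitors, had the smallest fitted difference of the 9 for both siRNAs against Control. It stood at -2.41, -2.05 and -2.02 on siRNA 1 arrays 1, 2 and 3, at -2.45 and -1.96 on siRNA 2 arrays 1 and 2, and at -2.22, -2.27 and -2.05 on Control arrays 1, 2 and 3. The groups overlapped, with a log2 difference of -0.0010 for both siRNAs (95% interval -0.35 to 0.35), 0.02 for siRNA 1 and -0.02 for siRNA 2. The ligands, receptors and other targets of the same pathway were read beside it. Of 20 Notch pathway genes 17 were tested, 7 stood above and 10 below Control for both siRNAs, and 0 passed. The 2 with the smallest p were the receptor Notch3, at a log2 difference of -0.23 (limma's unadjusted p = 0.016), and the ligand Dll1, at 0.45 (limma's unadjusted p = 0.0509). The genes most like Hes5 were Pip4k2a (r = 0.980) and Kash5 (0.962), and those most like Sox3 were Skint7 (0.942) and Ubtf (0.927).

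**Figure D4:**
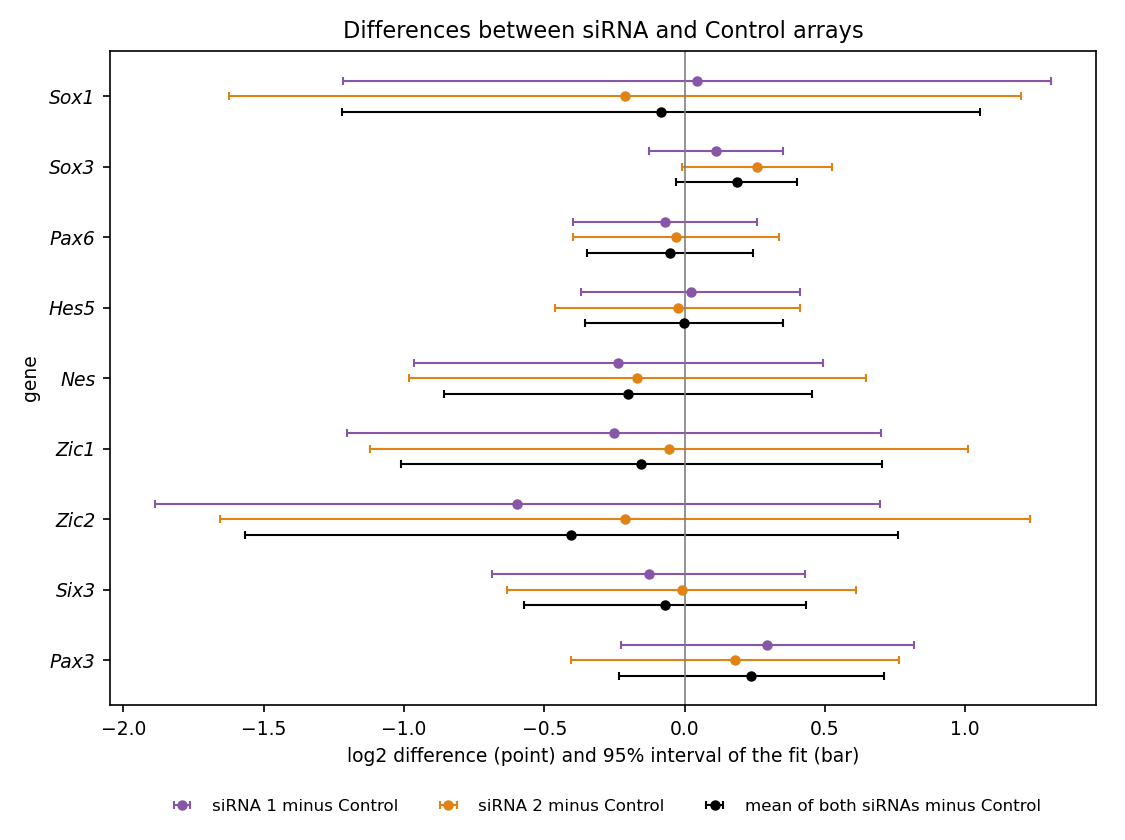
Fitted log2 differences of the 9 genes (points) with 95% intervals (bars) for siRNA 1, siRNA 2 and the mean of both, each minus Control. Sox3 has the narrowest intervals, with siRNA 2 at 0.26 (-0.0082 to 0.53), and the interval of Zic2 for both siRNAs runs from -1.57 to 0.76.

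The width of these intervals, which come from a fit with no slide term and take in differences between slides, set what that fit could show. Sox3 spanned 0.40 log2 units over all arrays, Hes5 0.49 and Pax6 0.54, near the 0.498 median of all tested genes, whereas Six3 spanned 0.77, Pax3 0.94, Nes 1.13, Zic1 1.28, Sox1 1.55 and Zic2 2.08. For Sox3, Hes5 and Pax6 the 95% intervals of both siRNAs against Control extended to at most 0.40, in Sox3, while those of Sox1, Zic1 and Zic2 reached beyond 1 unit on at least 1 side. Within slides, the 5 differences from Control lay between -0.10 and 0.20 in Sox1. They lay between -1.28 and 0.73 in Zic1 and between -2.08 and 1.07 in Zic2. A p that misses the threshold does not show that the groups were alike. Between the siRNAs, the log2 difference of siRNA 2 from siRNA 1 was largest for Zic2 at 0.38 (95% interval -1.06 to 1.83) and smallest for Pax6 at 0.04, with 6 of 9 above 0 and 42.4% of all genes above 0.

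The wider neural lists gave the same count of calls, 0. Of 38 wider neural plate genes 28 were tested, with 15 above and 13 below Control for both siRNAs and a median log2 difference of 0.06, against 0.01 over all genes. The siRNAs differed in these counts, with 22 of 28 above Control in siRNA 1 (58.2% of all genes) and 14 of 28 in siRNA 2 (49.8%). Between the siRNAs, 7 of 28 were above 0 and 21 below, with 42.4% of all genes above 0. Such counts describe the list and are not a test. For both siRNAs against Control, the forebrain factor Lhx2 stood at 0.33 (limma's unadjusted p = 0.00999) and the epiblast and neural POU factor Pou3f1 at 0.21 (limma's unadjusted p = 0.0282). The summed linear signal of the 28, in units of the array's 75th percentile, was 79.42 to 82.97 in siRNA 1, 83.7 to 84.6 in siRNA 2 and 74.0 to 78.8 in Control. Such a sum is set mostly by its brightest probes and was not tested. Here Pou3f1 made up 33.8% of it and Otx2, at a log2 difference of 0.04 (SE 0.061) for both siRNAs, 33%. The sums therefore do not show a rise of the 28 genes as a set. The same sum over the 9 members was 12.4 to 15.4 in siRNA 1, 14.3 to 17.0 in siRNA 2 and 12.80 to 15.98 in Control, so these ranges overlapped. Among the wider list, Six6, Fezf1, Fezf2, Pou3f2, Pou3f3, En1 and Emx2, most of them genes of already regionalised brain, were well above background on no array.

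Of 14 neural crest and border genes 13 were tested, 5 above and 8 below Control, with a median of -0.05, and Gbx2, also a gene of pluripotent cells, stood at 0.48 (limma's unadjusted p = 0.00119) and Tfap2a at -0.24 (0.0888). Of 16 genes of early neurons 13 were tested, 9 above and 4 below, with a median of 0.09, and Map2 stood at 0.26 (limma's unadjusted p = 0.0539) and Neurod1 at 0.45 (0.0628). The 13 tested secreted and intracellular antagonists of BMP, Nodal and Wnt signals, which permit neural induction, split 6 above and 7 below with a median of -0.04. Taken by siRNA, 12 of 13 genes of early neurons stood above Control in siRNA 1 and 8 of 13 in siRNA 2. In that order, the counts were 7 and 5 of 13 crest genes, 4 and 6 of 13 antagonists, and 6 and 9 of 17 Notch pathway genes. Over all genes the shares were 58.2% and 49.8%.

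Markers of other cell types were read on the same arrays. Their lists were written with earlier results of these data known, so a count in 1 direction describes the list and is not a test. All 14 naive pluripotency genes stood above Control for both siRNAs, with a median log2 difference of 0.46, all 15 tested primitive and visceral endoderm genes below it, with a median of -0.61, and 9 of 13 tested primitive streak and mesoderm genes below it, with a median of -0.39. The summed signal of the naive list was 28.8 to 44.2 in siRNA 1, 29.2 to 34.1 in siRNA 2 and 21.30 to 31.98 in Control, and that of the endoderm list 10.5 to 15.7 in siRNA 1, 8.77 to 8.80 in siRNA 2 and 10.2 to 18.7 in Control. The siRNAs were unlike in the endoderm list, with a median of -0.23 and 3 of 15 above Control in siRNA 1, -1.12 and 0 of 15 in siRNA 2, and siRNA 2 below siRNA 1 in 15 of 15 (median -0.82). The streak list had a median of -0.12 in siRNA 1 and -0.66 in siRNA 2, and the naive list 0.54 in siRNA 1 and 0.34 in siRNA 2. None of these genes passed over all genes. Of all tested genes, 52.9% stood above Control for both siRNAs, with a median log2 difference of 0.01. For siRNA 2 against siRNA 1, 42.4% were above 0, with a median of -0.03. Epidermal genes split 6 above and 5 below (median 0.03) and fibroblast genes 2 above and 6 below (median -0.12). The part of these other cell types in the neuroectoderm values was not tested.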

How the data were processed

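Scanner files of 8 Agilent 1-colour (Cy3) arrays held intensity values of 44397 spots each, which the authors had background-corrected (Feature Extraction version 10.7.3.1), as read per the file headers. RMA is named in the submitters' processing notes without a stated role. A deposited table of log2 values of the same arrays, centred per probe, served as an alternative. Its columns Control 2 and Control 3 matched each other's scanner file, and scanner file names were used. Of 39429 probes, 26431 were named through their accessions in a RefSeq table of GRCm38.p6. The array design used another build, so no probe coordinates are given. Control and outlier spots were left out, 0 spots were saturated, spots of 1 probe were averaged, and the brightest probe stood for a gene. A gene was tested if all arrays of some group read it well above background.

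One fit over the 3 groups (limma 3.58.1, R 4.3.3) on log2 processed signal minus the 75th percentile gave 5 residual and 2.09 prior degrees of freedom, with Benjamini-Hochberg adjustment over 22413 genes. Member pairs had exact two-sided permutation tests. These take the arrays as exchangeable, although arrays share groups and slides. Named were all members, the 2 genes most like each over 8 arrays, and the 2 of smallest p in 4 lists. The members and the 10 lists were chosen with earlier results of these data known, and Zic4, Zic5, the Olfr genes and the slide comparison after values were seen. On simulated data with 200 of 22413 genes changed and no slide effect, 66.7% of 2-fold and 92.6% of 4-fold changes were recovered for both siRNAs. Of 2-fold changes, 60.3% were recovered for siRNA 1, 51.9% for siRNA 2 and 49.9% between the siRNAs. Simulated spreads were drawn from the fit's prior over all genes, so these shares do not apply to widely spread members such as Zic2 and Sox1. Same-numbered arrays correlated between -0.04 and 0.70, not all above 0.1, so numbers were not taken as pairs. By the deposited table's names for Control 2 and Control 3, same-numbered arrays share a slide and correlate between 0.04 and 0.70, again not all above 0.1. Arrays of different groups on different slides correlate between -0.70 and 0.36. All these correlations are of deviations from group means, which cancel within a group. The 2 siRNA 2 arrays therefore gave values of equal size and opposite sign with any array of another group. Their values, -0.70 and 0.36 among them, are thus not separate evidence on slides or pairs. Between siRNA 1 and Control arrays on different slides, the correlations ran from -0.43 to 0.05. The main fit holds no slide term, so its intervals take in differences between slides, and the slide as a block was run as an alternative. Alternatives covered scaling, background correction (offset 50, on the median spot signal), the deposited table, filters, probe choice, variance model, weights, blocks and leaving out arrays. Python 3.11.15, pandas 2.3.3, numpy 2.4.6 and matplotlib 3.10.9 were used.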

Additional observations from a re-analysis of the deposited data

How the results depend on the processing

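In each of the 4 comparisons, 0 of the 9 genes passed under every alternative run, and the smallest adjusted p by limma was 0.128, for Sox3 with array weights. The weight was 5.63 for Control 3, the lowest Sox3 array at 3.11, against 0.49 for Control 1 and 0.41 for Control 2. Results with array weights thus lean mostly on 1 Control array. The count over all genes was 0 except 24 with array weights for both siRNAs against Control, 1 when only the groups compared were fitted for siRNA 2 against siRNA 1, and 0 to 1 over the arrays left out for siRNA 2 against Control. With the replicate number as a block 0 genes passed in each comparison (699 at limma's unadjusted p under 0.05 for both siRNAs, 702 for siRNA 1, 642 for siRNA 2 and 617 between the siRNAs), and with the slide as a block 0 passed (983, 920, 1003 and 973 in that order). Of 189 values for both siRNAs, 28 changed sign, 22 of them where arrays were left out. Sox3 kept its sign under every alternative, at 0.12 to 0.30, the highest with array weights. Zic2 ranged from -0.82 to 0.59, Zic1 from -0.47 to 0.56, Nes from -0.47 to 0.28, Sox1 from -0.48 to 0.22, Six3 from -0.42 to 0.11, Pax3 from -0.09 to 0.43, Pax6 from -0.19 to 0.08 and Hes5 from -0.12 to 0.17. For siRNA 2 against Control, Zic2 stood at -0.21, at 1.14 without slide 1 and at -1.04 without siRNA 2 replicate 2. The causes were not tested. The number of arrays, 2 or 3 a group, limits every value, and a second probe of Pax6 and of Pax3 was not well above background on every array.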
